A study of Mus musculus with 6 samples.

Results

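The cell cycle and mitosis genes examined here were 44 genes taken by name from the 53801 rows of the gene count table. They comprised 5 genes that control entry into S phase, 15 S phase genes and 24 genes of G2 and mitosis (G2/M). RNA had been sequenced from PDPN+PDGFRα+ stromal cells sorted from MO5 tumors, that is, subcutaneous melanomas of B16-OVA cells. The 3 DTR libraries came from ADAM12-DTR mice, in which the Adam12 promoter drives the diphtheria toxin receptor, and the 3 Ctrl libraries from DTR-negative mice. Both groups received diphtheria toxin, so toxin treatment itself does not separate them. The comparison addresses what the sorted fraction expresses in tumors in which the toxin is aimed at ADAM12+ cells. How many of those cells were lost cannot be read from these libraries. Pigment cell markers stood high in the libraries, so a transcript in them need not come from stromal cells. The labels do not say which mouse each library came from, and the p-values therefore measure the spread between these libraries.

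Cells that divide make the machinery of each phase in turn. Cyclins D and E and the E2F transcription factors open S phase, in which MCM helicases unwind origins and DNA is copied, and CDK1 with cyclins A and B then drives mitosis, in which kinases, kinetochore proteins and motors separate the chromosomes. S phase genes are typical targets of E2F factors, whereas many G2/M genes are repressed in resting cells by the DREAM complex through a promoter element named CHR and need the factor NF-Y at CCAAT boxes. In a sorted tumor fraction these transcripts reflect the share of sampled cells, of whatever type, that are cycling. In bulk RNA, fewer cycling cells and less RNA per cycling cell cannot be told apart.

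Promoters were read to show what the S and G2/M genes share beyond their names. RefSeq windows of GRCm38.p6, from 250 bases before to 50 after the first listed start, were at hand for 37 of the 44 genes. On both strands, 8 of 13 S phase windows held an E2F word (TTTCGCGC, TTTGGCGC, TTCGCGCC, TTGGCGCC, TTCCCGCC or TTTCCCGC), against 2 of 21 G2/M windows and 4.51% of the windows of all 27025 genes. A CHR word (TTTGAA or TTTAAA) lay in 19 of 21 G2/M windows, in 4 of 13 S phase windows and in 27.8% of all windows. CCAAT was present in 10 of 13 S phase and 17 of 21 G2/M windows, against 37.9% of all. Some E2F words overlap one another and are counted once per window, and a match describes the letters alone. The stretch from 100 bases before to 20 after the start is shown for a pair of S phase genes with E2F words and for 3 mitotic genes with CHR words, because these words differed most in frequency between the S phase and G2/M windows. Each is written 5′ to 3′ on the gene's strand, with E2F, CHR and CCAAT words in capitals. Mcm6 was read from chr1:128359686-128359805 (minus strand), Rrm1 from chr7:102441595-102441714 (plus), Cdk1 from chr10:69352893-69353012 (minus), Ccnb2 from chr9:70421535-70421654 (minus) and Ube2c from chr2:164769829-164769948 (plus).
Mcm6: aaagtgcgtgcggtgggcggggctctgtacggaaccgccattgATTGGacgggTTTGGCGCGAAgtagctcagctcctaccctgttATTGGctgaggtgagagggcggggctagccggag
Rrm1: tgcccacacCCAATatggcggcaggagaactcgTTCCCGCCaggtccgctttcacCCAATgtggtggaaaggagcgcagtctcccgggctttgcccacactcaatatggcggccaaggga
Cdk1: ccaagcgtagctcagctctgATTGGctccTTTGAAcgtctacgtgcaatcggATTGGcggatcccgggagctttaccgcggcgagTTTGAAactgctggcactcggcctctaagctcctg
Ccnb2: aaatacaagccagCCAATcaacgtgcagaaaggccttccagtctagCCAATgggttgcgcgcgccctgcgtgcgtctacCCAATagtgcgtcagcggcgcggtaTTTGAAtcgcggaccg
Ube2c: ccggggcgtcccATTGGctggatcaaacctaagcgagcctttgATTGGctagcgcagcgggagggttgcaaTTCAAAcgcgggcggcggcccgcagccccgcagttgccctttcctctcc
ATTGG and TTCAAA are CCAAT and TTTGAA read on the other strand.

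The 6 libraries held between 22339635 and 34271929 counts, and 15133 genes had enough counts to be tested with edgeR's quasi-likelihood method, whose adjusted p-values (Benjamini-Hochberg) cover all of them. Levels are given as CPM, counts scaled by library size and TMM factor, and fold changes as log2 of DTR over Ctrl. Because reads were apparently counted over whole gene spans, introns included, levels are compared between libraries and not between genes. Adam12, the gene whose promoter drives the receptor, was lower in each DTR library than in any Ctrl library, as were 8.18% of tested genes. It was short of the threshold, with 216, 181 and 175 CPM in Ctrl against 165, 151 and 112 in DTR (adjusted p = 0.602 over all genes, edgeR). All 10 fibroblast markers were tested, Pdgfra and Pdpn among them, but pigment cell markers stood high in the same libraries, with Dct at 5751 to 7580 CPM, so which cells made the cell cycle transcripts was not tested. DTR replicate 3 stood apart, with the lowest correlation across genes to the other libraries (r from 0.967 to 0.978, against 0.977 to 0.985 among the rest), and fold changes of named genes that move with it are given with and without it.

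Of the 44 genes, 43 could be tested, each with at least 134 reads in every library. With an adjusted p under 0.05 as the threshold, 0 of 43 passed in edgeR, against a background of 0 of 15133 genes (0%), and the lowest adjusted p of the 43 was 0.688. At an unadjusted p under 0.05 there were also 0 of 43, where 4.11% of all tested genes were lower and 3.81% higher at that level. DESeq2 called 0 of the 43 as well, against 31 of 20519 genes (0.151%), and limma voom called 0. The libraries of the groups overlapped for each of the 43, while 8.18% of all tested genes were lower and 6.32% higher without overlap. Log2 fold changes were small, from -0.39 for E2f1 to 0.16 for Ccne2, with 33 genes below 0 and 10 above, a median of -0.12 and a median of -0.0029 over all tested genes. Standard errors (SE) ran from 0.128 to 0.349, so that the 95% confidence intervals of the 43 genes reached down to -1.03 and up to 0.97 at their widest. Differences within these intervals were not detectable with 3 libraries a group.

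**Figure D1:**
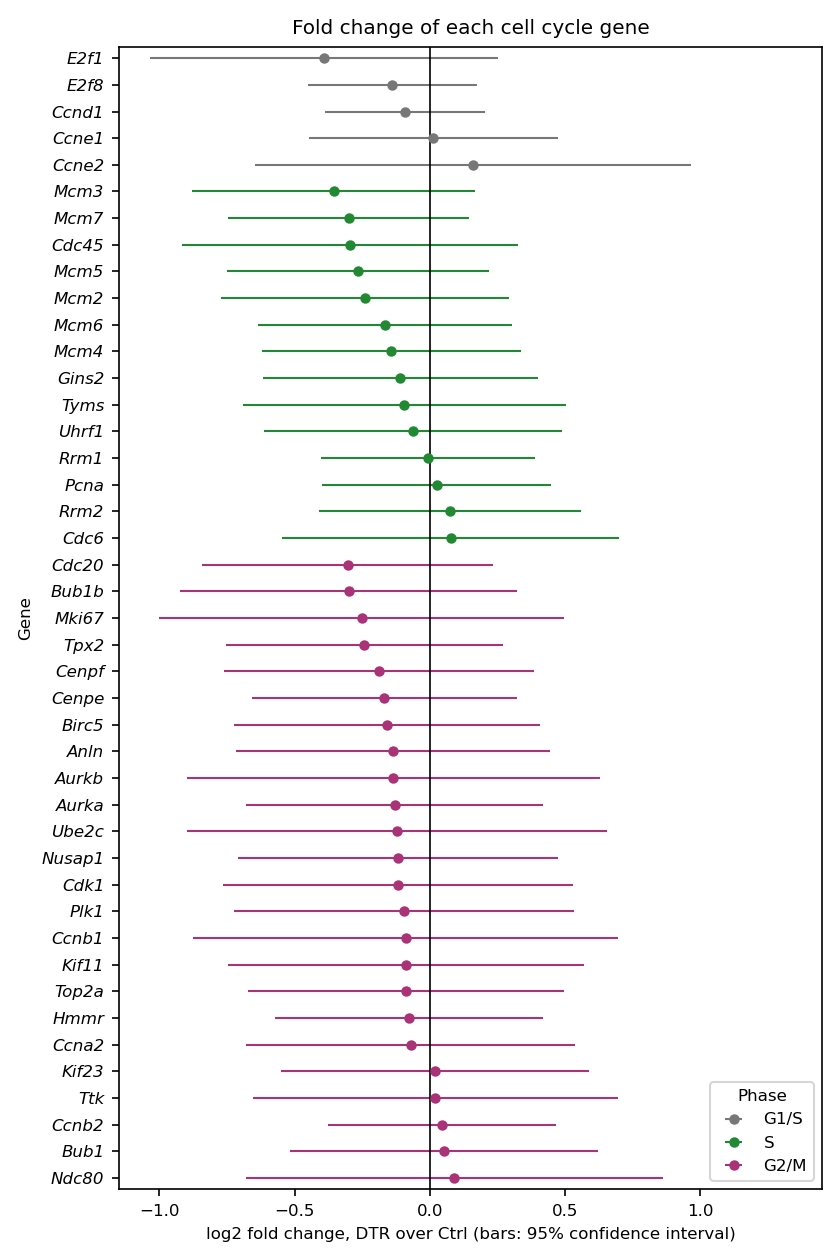
Log2 fold change of DTR over Ctrl (x axis) for each of the 43 tested genes (y axis), ordered within G1/S, S and G2/M, with points for the edgeR estimate and bars for its 95% confidence interval. Every interval spans 0, and the points lie between -0.39 and 0.16.

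The genes differed far more among the libraries of a group than between the groups. The standard deviation of log2(CPM + 0.5) within groups had a median of 0.41 over the 43 genes, against 0.21 over all tested genes. Taken by group, the median was 0.25 in Ctrl and 0.50 in DTR, against 0.18 and 0.20 over all tested genes. DTR replicate 3 was the lowest of the 6 libraries for 38 of the 43 genes, although it was the lowest for 23.2% of all tested genes. DTR replicate 1 was the highest for 26 and Ctrl replicate 1 for 14 of the 43, against 12.9% and 15.98% of all tested genes. DTR replicate 3 lay below each Ctrl library for 39 of 43 genes (32.4% of all tested genes), and DTR replicate 1 lay above each Ctrl library for 26 of them (24.7% of all). For 23 of the 43 genes DTR replicate 1 was the highest and DTR replicate 3 the lowest library (4.40% of all). Between DTR replicates 1 and 3 the median gene differed 1.98-fold, with replicate 1 higher for 42 of 43 genes. Ctrl replicate 1 was likewise above Ctrl replicate 2 for 42 of 43, and the exception in both pairs was Ccnd1.

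**Figure D2:**
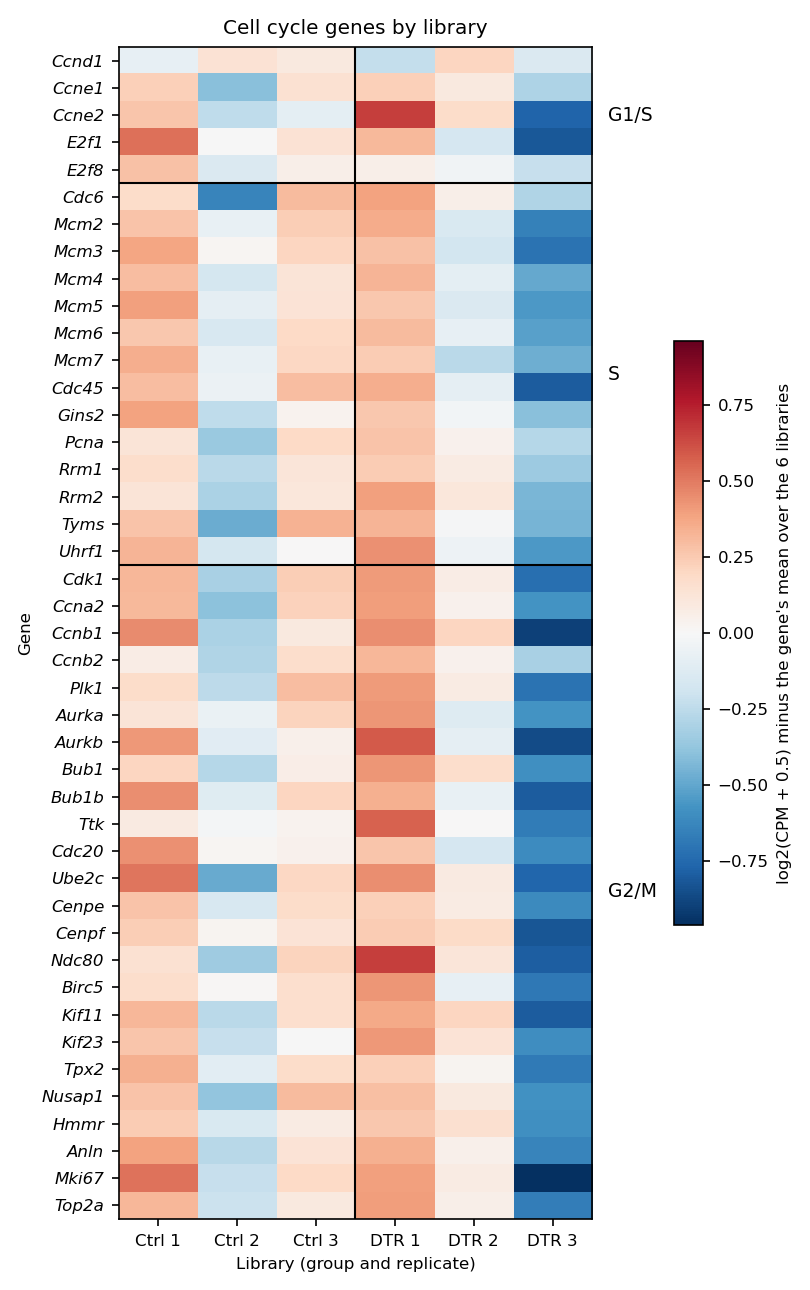
Each row is a gene, each column a library, and the color gives log2(CPM + 0.5) minus that gene's mean over the 6 libraries, with red above and blue below 0. The DTR replicate 3 column is blue for all 43 genes, and the DTR replicate 1 and Ctrl replicate 1 columns are red for all but Ccnd1.

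Among the genes that control entry into S phase, 3 were below and 2 above 0, and the median log2 fold change was -0.09. Ccnd1, the cyclin that couples growth signals to CDK4 and CDK6, was counted at 188, 219 and 212 CPM in Ctrl and at 170, 230 and 181 in DTR. It was the steadiest of the 43 genes, with 1.35-fold between its lowest and highest library, and its log2 fold change, -0.09, had an SE of 0.128 and an adjusted p of 0.858 in edgeR. E2f1, the activator of S phase genes, had 32.4, 22.2 and 24.7 CPM in Ctrl and 27.9, 19.9 and 12.5 in DTR. Its groups overlapped, with the lowest value in DTR replicate 3, and the log2 fold change of -0.39 had an interval from -1.03 to 0.25 (adjusted p = 0.720, edgeR; p = 0.4 in a two-sided exact permutation test, where 3 against 3 allow no p under 0.1). Ccne2, a partner of CDK2, had 12.6, 8.71 and 9.74 CPM in Ctrl and 16.8, 11.8 and 5.91 in DTR. For Ccne2 the DTR libraries held both the highest and the lowest value, and the log2 fold change was 0.16 (SE 0.349). Ccne1, the other cyclin E gene, and E2f8, a repressor of the E2F family, had log2 fold changes of 0.01 and -0.14. Leaving out DTR replicate 3 put E2f1 at -0.14, Ccne2 at 0.47, Ccnd1 at -0.05, Ccne1 at 0.15 and E2f8 at -0.06.

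Replication licensing loads the MCM helicase at origins, and firing adds CDC45 and the GINS complex to it. Of these 10 genes 9 were tested, 8 of them below 0, and their median log2 fold change was -0.24. Without DTR replicate 3, 5 of 9 were below 0 and the median was -0.03, and without DTR replicate 1 it was -0.48. Mcm3, a helicase subunit, was counted at 210, 163 and 186 CPM in Ctrl and 196, 142 and 98.4 in DTR. Its values overlapped between the groups and were lowest in DTR replicate 3, and its log2 fold change of -0.36 (SE 0.226, interval -0.88 to 0.17) had the smallest unadjusted p of all 43 genes, 0.153 (edgeR), with p = 0.3 in the two-sided exact permutation test. Mcm2, another subunit, stood at 257, 201 and 250 CPM in Ctrl and at 272, 191 and 135 in DTR. DTR replicate 1 was the highest of its 6 libraries and replicate 3 the lowest, and the log2 fold change was -0.24 (adjusted p = 0.793, edgeR). The 6 helicase genes Mcm2 to Mcm7 were all below 0, from -0.36 to -0.14, and without DTR replicate 3, 4 of the 6 were below 0 and their median moved from -0.25 to -0.06. Without DTR replicate 1 the median of the 6 was -0.50. Cdc6, which loads the helicase with CDT1, went the other way, with 22.1, 12.4 and 24.3 CPM in Ctrl and 25.7, 20.4 and 15.9 in DTR. Its lowest library was Ctrl replicate 2, and its log2 fold change was 0.08 (SE 0.270). Cdc6 was at -0.17 without Ctrl replicate 2 and at -0.10 without DTR replicate 1. Cdc45 and Gins2, a GINS subunit, had values of -0.29 and -0.11. Mcm3 was at -0.14, Mcm2 at -0.03, Cdc6 at 0.23, Cdc45 at -0.04 and Gins2 at 0.05 without DTR replicate 3.

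Cdt1, the partner of CDC6, was listed at 0 counts in all 6 libraries, which says nothing on its expression. It lies at chr8:122568015-122573554 on the plus strand of GRCm38, wholly within the annotated span of Gm20388 (chr8:119910841-124345722, plus strand, 4434882 bases in the GENCODE M21 annotation). All 36 protein-coding genes that lie within Gm20388 on its strand were at 0, and 0 of the 35 on the opposite strand were. Across the genome, 238 of 238 protein-coding genes that lie within another gene's span on the same strand without sharing an exon base were at 0, compared with 23.4% of genes without such an overlap. Of the other 43 genes, each shared at most 3.62% of its span in this way.

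Genes of the fork, of nucleotide supply and of maintenance methylation stayed closer to 0, with 3 below and 2 above and their median log2 fold change was -0.0075. Rrm2, the small subunit of ribonucleotide reductase, was counted at 130, 96.6 and 129 CPM in Ctrl and at 157, 129 and 87.99 in DTR. The DTR libraries again held both extremes, and the log2 fold change was 0.07 (SE 0.210). Tyms, thymidylate synthase, had 35.6, 20.98 and 37.2 CPM in Ctrl and 37.1, 29.2 and 21.5 in DTR. Its lowest libraries were Ctrl replicate 2 and DTR replicate 3, at nearly the same value, and the log2 fold change was -0.09 (SE 0.258). Pcna, the sliding clamp of DNA polymerase, Rrm1, the large reductase subunit, and Uhrf1, which brings the maintenance methylase to new DNA, had values of 0.02, -0.0075 and -0.06. All 5 genes were above 0 without DTR replicate 3, from 0.08 for Tyms to 0.27 for Rrm2, with a median of 0.15. All 5 were below 0 without DTR replicate 1 (median -0.13) and without Ctrl replicate 2 (median -0.13). For Pcna, Mcm7 and Uhrf1, 19.1%, 18.1% and 15.4% of the 50-base words of their transcripts also occur in other annotated genes, mainly processed copies, so that part of their reads may not have been assigned to them.

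The licensing genes sat lower than the fork genes in DTR relative to Ctrl within the S phase group, a contrast singled out after its values were seen. The mean log2 deviation of licensing genes from the 6-library mean, minus that of the fork genes, was 0.11, 0.15 and 0.04 in Ctrl and -0.03, -0.14 and -0.13 in DTR. Each DTR library was below each Ctrl library in this difference. The difference of the medians of log2 fold change was -0.23, and it lay between -0.35 and -0.17 when single libraries were left out. It rests on 9 and 5 genes and is a description without a test. Other replication genes, from the wider list given below, did not repeat it. There, Orc1 to Orc6 ran from 0.0013 to 0.36, and Gins1, Gins3 and Gins4 were at 0.13, -0.18 and -0.16 (log2 fold change). Rfc1 to Rfc5, of the fork, ran from -0.20 to -0.016, and the maintenance methylase gene Dnmt1 was at -0.26.

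The mitotic cyclins and kinases, 6 below and 1 above 0, centred on a median of -0.10 (log2 fold change). Aurkb, the kinase of the chromosomal passenger complex, was counted at 39.0, 26.8 and 30.0 CPM in Ctrl and at 43.9, 27.3 and 15.8 in DTR. DTR replicates 1 and 3 were its highest and lowest libraries, 2.79-fold apart, and the log2 fold change was -0.14 (SE 0.331). Ccnb2, a cyclin B, had 54.3, 42.3 and 58.1 CPM in Ctrl and 64.8, 53.2 and 41.5 in DTR. Its groups covered almost the same range, and the log2 fold change was 0.04 (SE 0.183). Cdk1, the mitotic kinase itself, its partners Ccna2 and Ccnb1, and the kinases Plk1 and Aurka, which mature the centrosomes and build the spindle, lay between -0.13 and -0.07. Without DTR replicate 3 all 7 were above 0, from 0.080 for Aurka to 0.22 for Ccnb1, with Aurkb at 0.16 and Ccnb2 at 0.19. All 7 were below 0 without DTR replicate 1 (median -0.36) and without Ctrl replicate 2 (median -0.25). Ccnb1 shares 23.4% of its 50-base words with other annotated genes.

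The spindle checkpoint holds cells in metaphase until CDC20 activates the anaphase-promoting complex, whose ubiquitin comes from UBE2C. Cdc20 was counted at 27.3, 20.2 and 20.6 CPM in Ctrl and at 24.2, 17.8 and 13.0 in DTR. Its second-highest library was DTR replicate 1, so the groups overlapped, and the log2 fold change was -0.30 with an SE of 0.233 (edgeR adjusted p = 0.742). Cdc20 shares 10.4% of its 50-base words with other annotated genes. Bub1, a checkpoint kinase, had 59.4, 42.4 and 53.6 CPM in Ctrl and 69.0, 57.9 and 34.1 in DTR. It was higher in DTR replicate 1 and lower in DTR replicate 3 than in any Ctrl library, and its log2 fold change was 0.05 (SE 0.247). Bub1b, whose product BUBR1 inhibits CDC20, had -0.30, and the checkpoint kinase Ttk and Ube2c had 0.02 and -0.12. With DTR replicate 3 left out, Cdc20 was at -0.11, Bub1 at 0.29, Bub1b at -0.05, Ttk at 0.29 and Ube2c at 0.15. All 5 were below 0 without DTR replicate 1 (median -0.40) and without Ctrl replicate 2 (median -0.36).

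At the kinetochore, Cenpf was counted at 188, 163 and 175 CPM in Ctrl and at 189, 181 and 90.2 in DTR. The first 5 of these values were close together, and DTR replicate 3 alone brought the log2 fold change to -0.19 (SE 0.248). Without it, the value was 0.08. Ndc80, which binds microtubules, had 31.4, 22.2 and 32.8 CPM in Ctrl and 44.9, 30.6 and 16.1 in DTR, and its log2 fold change of 0.09 (SE 0.333) was the highest of the G2/M genes. The kinetochore motor Cenpe and the passenger protein gene Birc5, which encodes survivin, had -0.17 and -0.16. Ndc80 was at 0.39, Cenpe at 0.04 and Birc5 at 0.080 without DTR replicate 3. All 4 genes were below 0 without DTR replicate 1 (median -0.34) and without Ctrl replicate 2 (median -0.22).

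Of the genes for spindle motors, spindle assembly and cytokinesis, 5 were below and 1 above 0. Tpx2, an activator of Aurora A, was counted at 140, 104 and 126 CPM in Ctrl and at 130, 113 and 69.3 in DTR. All but DTR replicate 3 lay within the Ctrl range, and the log2 fold change was -0.24 (SE 0.222). Kif23, a motor of the central spindle, had 63.1, 44.9 and 52.2 CPM in Ctrl and 70.1, 57.4 and 34.5 in DTR. The means were nearly equal, 53.4 ± 9.14 CPM in Ctrl and 54.0 ± 18.1 in DTR (SD, n = 3), and DTR replicates 1 and 3 were the highest and lowest libraries. Kif11, the motor that pushes spindle poles apart, Nusap1, Hmmr and Anln, which encodes the cytokinesis protein anillin, lay between -0.14 and -0.08. When DTR replicate 3 was left out, Tpx2 was at -0.02. The other 5 were then above 0, from 0.09 for Anln to 0.26 for Kif23. All 6 were below 0 without DTR replicate 1 (median -0.30) and without Ctrl replicate 2 (median -0.27).

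Mki67, the gene of the proliferation antigen Ki-67 that coats mitotic chromosomes, was counted at 704, 421 and 561 CPM in Ctrl and at 646, 517 and 252 in DTR. DTR replicates 1 and 2 fell within the Ctrl range, whereas replicate 3 was below it, and Mki67 had 562 ± 142 CPM in Ctrl and 472 ± 201 in DTR (SD, n = 3). The log2 fold change of Mki67 was -0.25 with an interval from -1.001 to 0.50 (SE 0.325, edgeR adjusted p = 0.848), and it was 0.05 without DTR replicate 3 and -0.54 without DTR replicate 1. Top2a, the topoisomerase that untangles sister chromatids, had 521, 361 and 445 CPM in Ctrl and 551, 434 and 264 in DTR. The DTR libraries held its highest and lowest value, and the log2 fold change was -0.09 (SE 0.253), or 0.15 without DTR replicate 3.

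**Figure D3:**
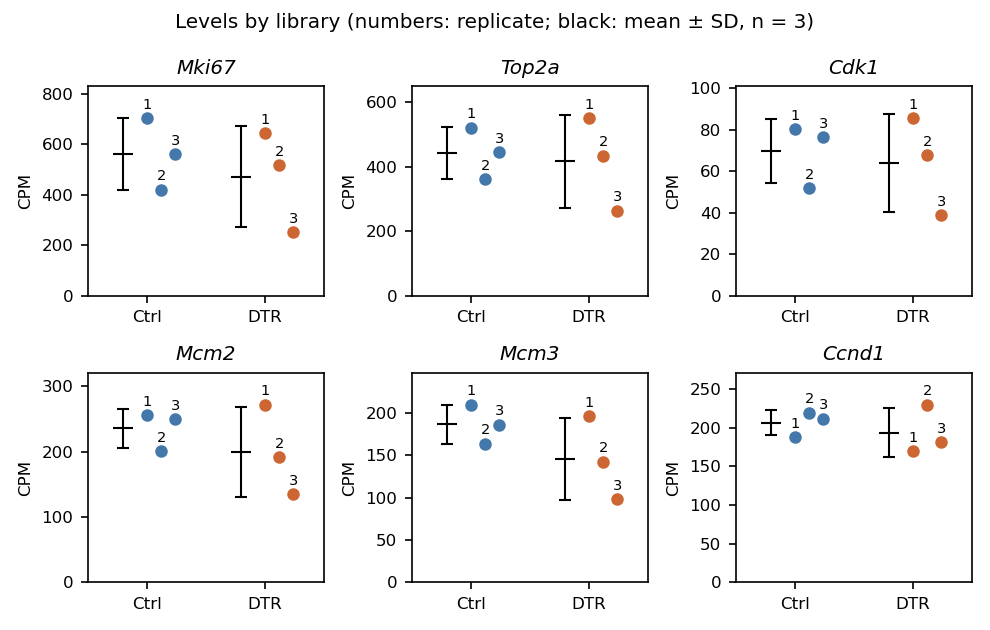
CPM (y axis, from 0) of Mki67, Top2a, Cdk1, Mcm2, Mcm3 and Ccnd1 in each Ctrl (blue) and DTR (orange) library, numbered by replicate, with the mean and SD of 3 libraries in black. DTR replicate 3 is the lowest of the 6 libraries in every panel except that of Ccnd1, where DTR replicate 1 is the lowest at 170 CPM.

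S phase and G2/M genes had nearly the same medians in the comparison of DTR with Ctrl. The 14 tested S phase genes, 11 of them below 0, were at a median of -0.13 (log2 fold change), and the 24 G2/M genes, 19 of them below 0, at -0.12. The G2/M median minus the S phase median was 0.0087. All 24 G2/M genes were lowest in DTR replicate 3, as were 11 of 14 S phase genes, the other 3 being lowest in Ctrl replicate 2. DTR replicate 1 exceeded DTR replicate 3 by a median of 2.09-fold over G2/M genes and 1.76-fold over S phase genes. The mean log2 deviation of G2/M genes minus that of S phase genes was 0.02, 0.01 and -0.03 in Ctrl and 0.07, 0.11 and -0.19 in DTR. This difference was thus wider among DTR libraries than among Ctrl libraries, with both ends in DTR, and was not tested.

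The direction of these medians depended on single libraries. Without DTR replicate 3, 32 of the 43 genes were above 0, with medians of 0.04 for S phase and 0.15 for G2/M genes. Without Ctrl replicate 1, 22 of 43 were above 0 and the medians were -0.01 and 0.02. Without DTR replicate 1, 42 of 43 were below 0, the medians were -0.35 and -0.35, and 9 genes (Mcm2, Mcm3, Mcm5, Mcm7, Cdc45, E2f1, Cdc20, Aurka and Birc5) had an unadjusted p under 0.05, all lower in DTR, where 5.36% of the 15665 genes tested in that fit were lower and 4.88% higher at that level. The lowest adjusted p of the 43 was then 0.443 in edgeR. Without Ctrl replicate 2, 42 of 43 were below 0, with medians of -0.27 and -0.25. Without DTR replicate 2, the S phase and G2/M medians were -0.12 and -0.16, and without Ctrl replicate 3 they were -0.12 and -0.07.

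**Figure D4:**
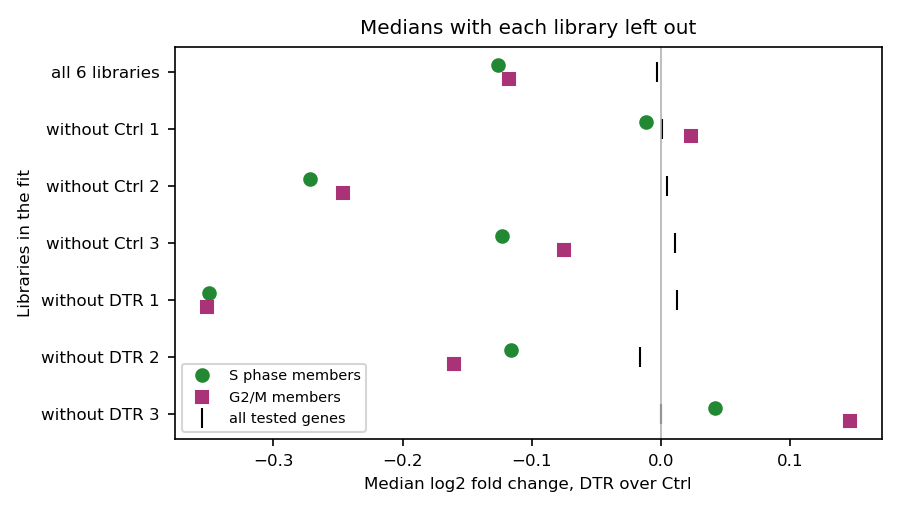
Median log2 fold change of DTR over Ctrl (x axis) of S phase genes (circles), G2/M genes (squares) and all tested genes (bars) with all 6 libraries and with each left out in turn (y axis). The medians of all tested genes stay between -0.02 and 0.01, while those of the cell cycle genes run from -0.35 without DTR replicate 1 to 0.15 without DTR replicate 3.

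Further genes of the same processes also leaned below 0. Of 46 other DNA replication genes, 32 were below and 14 above 0 (median -0.07), and of 60 other mitosis genes, 47 were below and 13 above (median -0.11), with 0 past the threshold in either list (edgeR adjusted p, over all genes). These medians were 0.07 and 0.07 without DTR replicate 3, -0.24 and -0.30 without DTR replicate 1, -0.21 and -0.23 without Ctrl replicate 2, and 0.0040 and -0.02 without Ctrl replicate 1. DTR replicate 3 was the lowest library for 34 of the 46 and 47 of the 60. Log2 fold changes ran from -0.36 (-0.14 without DTR replicate 3) for Clspn, a mediator of the replication checkpoint, to 0.36 for Orc4, a subunit of the origin recognition complex, and from -0.33 for Iqgap3 to 0.44 for Depdc1a, which were at -0.12 and 0.70 without that library. Depdc1a rested on Ctrl replicate 2, which had 1.21 CPM, and was at 0.03 without it. Orc4 had 40.6, 41.3 and 43.6 CPM in Ctrl and 44.6, 60 and 56.5 in DTR. Its groups did not overlap (unadjusted p = 0.0223, adjusted p = 0.602, edgeR). Pttg1, the securin gene, was the only other gene of these 2 lists without overlap, higher in DTR by 0.06 on the log2 scale. Of all tested genes, 8.18% were lower and 6.32% higher in DTR without overlap.

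CDK inhibitors, pocket proteins and arrest genes, which hold cells out of the cycle, leaned slightly above 0. Of 20 listed, 19 were tested, 7 below and 12 above 0, at a median of 0.06 (log2 fold change), which was -0.0036 without DTR replicate 3. E2f4, the E2F of resting cells and a part of DREAM, had 43.1, 38.8 and 36.3 CPM in Ctrl and 32.7, 27.4 and 32.7 in DTR. It was lower in each DTR library than in any Ctrl library, at -0.35 on the log2 scale (SE 0.119, unadjusted p = 0.0189, adjusted p = 0.602, edgeR). Rb1, the retinoblastoma pocket protein gene, went the other way without overlap, with 21.3, 26.4 and 26.8 CPM in Ctrl and 30.6, 29.7 and 27.7 in DTR (0.24 on the log2 scale, unadjusted p = 0.0912, adjusted p = 0.652, edgeR). Rb1 was at 0.14 without Ctrl replicate 1, its lowest library. The extremes were Cdkn2b, an inhibitor of CDK4 and CDK6 with at most 2.33 CPM, at -0.81 (SE 0.934), and the antiproliferative gene Btg2 at 0.58 (SE 0.458). Btg2 reached 42.0 CPM in DTR replicate 3, against 11.98 to 16.5 in the other libraries. Without that library Btg2 was at -0.26 and Cdkn2b at -1.75. Of 12 other cyclin, CDK and E2F genes, 11 were tested, 0 of them past the threshold or at an unadjusted p under 0.05, from -0.21 for Ccnd2 to 0.24 for E2f7. Ccnd2 was at -0.04 without DTR replicate 1 and -0.09 without Ctrl replicate 2, and E2f7 at 0.43 without DTR replicate 3 and -0.05 without DTR replicate 1. Cdk2 was lower (-0.19, and -0.12 without DTR replicate 3, adjusted p = 0.644, edgeR) in DTR without overlap of the libraries. E2f3 was higher without overlap (0.12, adjusted p = 0.752, edgeR). Over all tested genes, 8.18% were lower and 6.32% higher without overlap. At an unadjusted p under 0.05 in edgeR, 4.11% were lower and 3.81% higher.

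Markers of cell types moved with the libraries too. The 10 fibroblast markers were highest on average in DTR replicate 3 (mean log2 deviation 0.94) and next in Ctrl replicate 1 (0.48), and their summed level was 5217 to 13691 CPM in Ctrl and 5611 to 14170 in DTR, with none at 0. In the other 5 libraries the fibroblast markers followed in the order Ctrl replicate 1, DTR replicate 1 (0.19), Ctrl replicate 3 (-0.36), DTR replicate 2 (-0.47) and Ctrl replicate 2 (-0.77). The cell cycle genes were at 0.28, 0.34, 0.15, 0.02 and -0.20 in these 5. They were lowest, at -0.60, in DTR replicate 3, where fibroblast markers were highest. The orders were thus close only with DTR replicate 3 set aside, a choice made after the values were seen. The 12 melanocyte and melanoma markers had deviations from -0.12 to 0.14, with sums of 17952 to 21051 CPM in Ctrl and 16874 to 19906 in DTR, and none at 0. The 10 T and NK cell markers, at 8.05 to 58.2 CPM in Ctrl and 14.9 to 23.8 in DTR, were highest in Ctrl replicate 2, and the 10 macrophage and pan-leukocyte markers, at 124 to 210 and 144 to 153 CPM, were too. Of 8 endothelial markers, 5 were tested, and their list summed to 27.0 to 34.4 CPM in Ctrl and 33.5 to 100.3 in DTR, with Emcn at 0 in 5 of 6 libraries. In DTR replicate 3, Tek made up 62.9 of the 100.3 CPM, while Cdh5 was at 0 and Pecam1 at 4.01 CPM. Mural markers summed to 20.3 to 45.0 CPM in Ctrl and 14.2 to 20.4 in DTR. Keratinocyte markers summed to at most 4.12 CPM, with Krt1 at 0 in all libraries. The part of these cell types in the cell cycle levels was not tested.

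**Figure D5:**
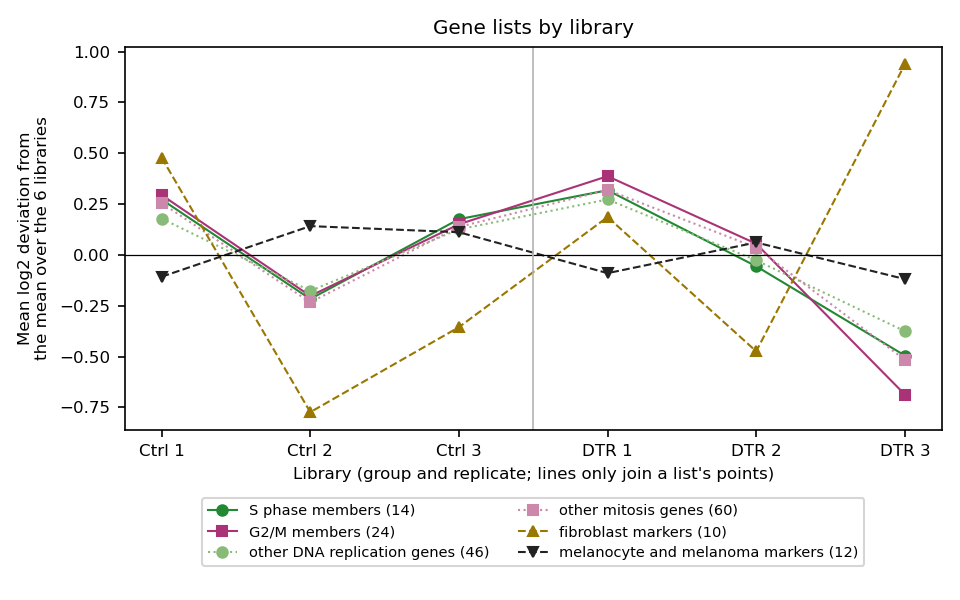
Mean log2 deviation of each gene list from its mean over the 6 libraries (y axis) in each library (x axis), for S phase and G2/M genes, the wider replication and mitosis lists, and fibroblast and pigment cell markers, with the number of genes in the legend. The 4 cell cycle lists run together and are lowest in DTR replicate 3, between -0.69 and -0.38, where fibroblast markers reach 0.94.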

How the data were processed

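RNA-seq of sorted PDPN+PDGFRα+ cells was analysed for 3 Ctrl and 3 DTR libraries, grouped by the sample labels. Per the labels, stranded libraries were made from total RNA with a low-input kit. The authors trimmed reads with cutadapt 3.4, aligned them to GRCm38 with STAR 2.7.3a and counted reads per gene with featureCounts 2.0.1. The raw counts they deposited, which are not normalized, were the values used here. The feature type counted is not given in the sources used here. Genes that lie within another gene's span are at 0, as reported with Cdt1, which is what counting over whole spans would give. The 6 columns of normalized values and the authors' own fold changes, p-values and dispersion columns were not used.

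Counts were filtered with edgeR's filterByExpr (minimum count 10, minimum total 15), scaled with TMM and tested for DTR against Ctrl by edgeR's quasi-likelihood method (two-sided, no covariates, 4 residual and 3.94 prior degrees of freedom, common dispersion 0.0662), with Benjamini-Hochberg adjustment over 15133 genes and a threshold of 0.05. Confidence intervals are the log2 fold change ± 2.31 standard errors. Libraries totalled between 22339635 and 34271929 counts. The floor of 3 counts is worth 0.0873 to 0.132 CPM and covers counting error only. A prior of 0.5 CPM was added for log2 levels. Alternatives were other scaling, other filters, DESeq2, limma voom, the replicate number as a block and each library left out.

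The member genes and the gene lists were chosen with earlier results of these data known. All members could be named, with values per library for the lowest and highest of each role, for Mki67, Mcm2 and Ccnd1 and for members whose groups do not overlap. Of the wider lists, the extremes and genes at an unadjusted p under 0.05 were named. Cdk1 in the panels of levels, the contrast of licensing with fork genes and the wider genes set beside it were chosen after their values were seen. So were the set Mcm2 to Mcm7, the genes Pttg1, Rb1, Cdk2 and E2f3 and the markers named in the text. Gene positions and spans are from GENCODE M21 (GRCm38), and promoters from RefSeq (GRCm38.p6), which gave none for Gins2, Aurkb, Ccne2, Ccnd1, Mcm4, Ccna2 and Tpx2. Software was edgeR 4.0.16, DESeq2 1.42.0 and limma 3.58.1 in R 4.3.3, with figures by matplotlib 3.10.9.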

Additional observations from a re-analysis of the deposited data

How the results depend on the processing

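With 3 libraries a group and spread of this size, differences of the order of the confidence intervals could not be detected. The count of genes past the threshold was 0 in edgeR with all 6 libraries, with 1199 at an unadjusted p under 0.05. It was 31 in DESeq2, ran from 0 to 2 in edgeR with each library left out (2 without Ctrl replicate 1), and was 0 with both other scalings, both other filters, limma voom and the replicate block. The count of cell cycle genes past the threshold was 0 in all 13 alternatives. Same-numbered Ctrl and DTR libraries had correlations of their deviations of 0.146, 0.162 and -0.065. The other pairs ran from -0.267 (Ctrl replicate 1 with DTR replicate 2) to 0.144 (Ctrl replicate 3 with DTR replicate 2). These values do not settle whether the numbers pair the libraries, and the main fit used no pairing. With the replicate block, 1271 genes had an unadjusted p under 0.05, Mcm3 and Mcm7 among them (4.14% of genes were lower and 4.26% higher at that level), and the median log2 fold changes were -0.15 over the cell cycle genes, -0.14 for S phase and -0.15 for G2/M genes. Outside leaving out libraries, the sign turned for 3 of the 43 genes. These were Rrm1, at 0.0016 with DESeq2-type size factors, 0.018 with library size alone and 0.0010 in DESeq2, and Ttk and Kif23, at -0.067 and -0.027 with the replicate block. With 1 library left out the sign of 33 cell cycle genes and of 3 other named genes turned in at least 1 fit, most often (22 cell cycle genes) without DTR replicate 3. Their log2 fold changes ran from -0.24 to 0.0040 for Ccnd1, -0.16 to 0.15 for Ccne1, -0.21 to 0.47 for Ccne2, -0.17 to 0.26 for Cdc6, -0.36 to 0.036 for Mcm4, -0.38 to 0.019 for Mcm6, -0.27 to 0.074 for Gins2, -0.13 to 0.16 for Pcna, -0.13 to 0.14 for Rrm1, -0.12 to 0.27 for Rrm2, -0.31 to 0.083 for Tyms, -0.34 to 0.15 for Uhrf1, -0.37 to 0.14 for Cdk1, -0.31 to 0.15 for Ccna2, -0.36 to 0.22 for Ccnb1, -0.11 to 0.19 for Ccnb2, -0.35 to 0.16 for Plk1, -0.43 to 0.080 for Aurka, -0.56 to 0.16 for Aurkb, -0.16 to 0.29 for Bub1, -0.33 to 0.29 for Ttk, -0.40 to 0.15 for Ube2c, -0.33 to 0.045 for Cenpe, -0.36 to 0.083 for Cenpf, -0.29 to 0.39 for Ndc80, -0.46 to 0.080 for Birc5, -0.30 to 0.19 for Kif11, -0.21 to 0.26 for Kif23, -0.31 to 0.099 for Nusap1, -0.23 to 0.14 for Hmmr, -0.35 to 0.093 for Anln, -0.54 to 0.049 for Mki67, -0.33 to 0.15 for Top2a, -1.75 to 0.049 for Cdkn2b, -0.26 to 0.88 for Btg2 and -0.045 to 0.44 for E2f7. The other 10 cell cycle genes stayed below 0 but moved by more than 1.5 times, from -0.52 to -0.025 for Mcm2, -0.62 to -0.14 for Mcm3, -0.48 to -0.085 for Mcm5, -0.52 to -0.16 for Mcm7, -0.59 to -0.041 for Cdc45, -0.69 to -0.14 for E2f1, -0.24 to -0.024 for E2f8, -0.55 to -0.11 for Cdc20, -0.58 to -0.048 for Bub1b and -0.42 to -0.02 for Tpx2. The causes were not tested.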
